A study of Mus musculus with 8 samples.

Results

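Layer II of the mouse medial entorhinal cortex (MEC) holds stellate and pyramidal cells, and 8 genes that mark this layer were followed across dorsal and ventral tissue: Reln, Calb1, Wfs1, Cpne4, Rasd2, Zdhhc23, Zfp385b and Gpr101. They were matched by gene symbol, each to 1 of the 38553 genes in the expression table (in this order ENSMUSG00000042453, ENSMUSG00000028222, ENSMUSG00000039474, ENSMUSG00000032564, ENSMUSG00000034472, ENSMUSG00000036304, ENSMUSG00000027016 and ENSMUSG00000036357), and all 8 were among the 13651 genes expressed highly enough to be tested. Reln was taken as the marker of stellate cells, and Calb1 and Wfs1 as markers of pyramidal cells. The other 5 were chosen as layer II genes whose level differed between dorsal and ventral MEC in these same libraries, so their differences are described here without a test.

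The study asked how gene expression differs along the dorsoventral axis of the MEC, and sequenced RNA from 4 dorsal and 4 ventral samples. The 13 donors were males of the C57BL/6JolaHsd strain at an age of 8 weeks, and the labels name no treatment for either region. The tissue came from sagittal slices of the right hemisphere, 400 µm thick and 1 per mouse, in which the dorsal and the ventral MEC were separated by hand. Material of 3 to 4 mice was pooled by region, which made 4 groups. The RNA, with integrity numbers of 7.1 to 8.5, was amplified from 120 ng before sequencing. No separation by layer is described, so layer II is only one of the layers in each sample, and fewer cells of a type cannot be told apart from less RNA per cell.

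The libraries held 10780902 to 15359782 estimated fragments assigned to genes. On the first principal component, which took 29.4% of the variance, the dorsal libraries lay between -19.5 and -5.04 and the ventral libraries between 0.193 and 21.4, with ventral library 2 lowest of its region. The deposited sources conflict over regions. Each library was placed in the region of the condition under which the authors entered it in their comparison, and the study's gene tables name the first condition dorsal. The mean of the 4 libraries of a condition matched the deposited mean within 0.1% for 38529 of 38553 genes. The column headers of the per-library table carry region letters that say otherwise for 4 of the 8 libraries, namely dorsal libraries 2 and 4 and ventral libraries 1 and 3. Values are therefore also given for the 4 libraries on which both sources agree, and for the regions as the header letters name them. The number of a library is the replicate number of that comparison.

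Stellate cells are the most numerous principal cells of layer II and send axons to the dentate gyrus, and most of them contain reelin. Pyramidal cells of the layer contain calbindin, lie in clusters that are also called islands, and carry Wfs1. Reelin is a large secreted glycoprotein that binds the receptors Vldlr and Lrp8 and acts through the adaptor Dab1, calbindin is a calcium buffer, and wolframin, the product of Wfs1, is a membrane protein of the endoplasmic reticulum. Dorsal and ventral parts of the MEC differ in the scale of grid cell firing and in the membrane properties of stellate cells.

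Across both regions the 8 genes spanned a wide range of levels, given here as FPKM, fragments scaled by exon length and by library size, which can be compared between genes. Wfs1 was highest at a mean of 64.5 FPKM, followed by Reln at 33.7, Zfp385b at 24.8, Cpne4 at 11.7, Zdhhc23 at 7.94, Calb1 at 6.21, Gpr101 at 5.18 and Rasd2 at 3.26. Wfs1 exceeded Reln in 8 of 8 libraries, with its lowest value of 47.1 above the highest of Reln, 38.9, and Zfp385b exceeded Cpne4 without overlap as well. Reln exceeded Zfp385b, and Cpne4 exceeded Zdhhc23, in 8 of 8 libraries each, although the ranges overlapped. Below these the order was not held within libraries: Zdhhc23 exceeded Calb1 in 5 of 8 libraries, Calb1 exceeded Gpr101 in 6 and Gpr101 exceeded Rasd2 in 4. Wfs1 stood at the 94.0th percentile of the genes tested and Rasd2 at the 25.4th.

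**Figure D1:**
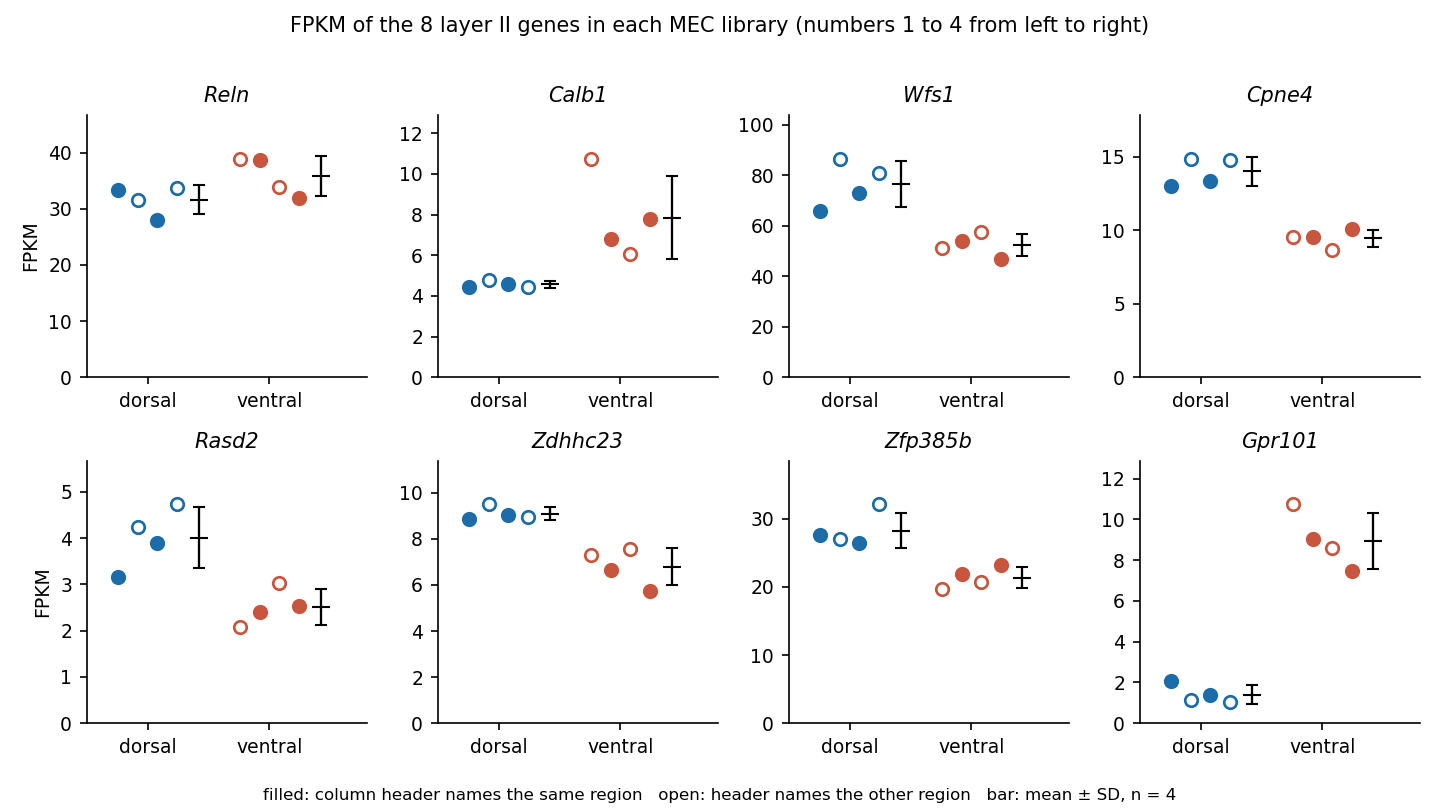
FPKM of each of the 8 genes (vertical axes, each from 0) in the 4 dorsal (blue) and 4 ventral (red) libraries, with the mean ± SD over 4 libraries in black. Open points are the 4 libraries whose column header names the other region. Gpr101 lay between 1.06 and 2.09 in dorsal and between 7.45 and 10.7 in ventral libraries, and Reln is the gene whose regions overlap.

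To show the sequence before the start of transcription, promoters are given for the stellate cell marker Reln and for Rasd2 and Gpr101, the genes of the 8 whose differences, given further on, were widest towards dorsal and ventral MEC. Each is the 250 bases upstream of the RefSeq start site, GRCm38.p6, written in the direction of the gene. RefSeq start sites were found for 7 of the 8 genes, not for Calb1. Capitals mark the GC box (GGGCGG) and the E-box (CACGTG), searched on both strands and found in 32.7% and 6.02% of 32851 promoters of the same length.
Reln, chr5:22344706-22344955, minus strand: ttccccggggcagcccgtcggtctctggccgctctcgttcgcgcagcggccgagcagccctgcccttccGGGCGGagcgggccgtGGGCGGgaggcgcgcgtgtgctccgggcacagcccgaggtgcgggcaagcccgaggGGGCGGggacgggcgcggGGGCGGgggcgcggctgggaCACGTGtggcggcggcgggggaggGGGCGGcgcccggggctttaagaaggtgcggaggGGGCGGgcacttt
Rasd2, chr8:75213694-75213943, plus strand: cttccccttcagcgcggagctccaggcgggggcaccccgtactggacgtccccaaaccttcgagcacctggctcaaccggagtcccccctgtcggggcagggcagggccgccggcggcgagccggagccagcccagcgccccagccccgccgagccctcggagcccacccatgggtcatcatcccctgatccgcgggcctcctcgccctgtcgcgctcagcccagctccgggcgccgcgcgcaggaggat
Gpr101, chrX:57503758-57504007, minus strand: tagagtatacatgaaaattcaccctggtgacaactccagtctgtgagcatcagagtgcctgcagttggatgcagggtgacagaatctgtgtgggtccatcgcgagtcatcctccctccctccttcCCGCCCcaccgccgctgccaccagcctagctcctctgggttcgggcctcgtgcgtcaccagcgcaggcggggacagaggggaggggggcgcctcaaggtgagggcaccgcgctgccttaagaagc
The Reln promoter held 6 GC boxes and 1 E-box and was 80.0% G and C, against a median of 52.4% over all promoters. That of Rasd2 was 75.2% G and C with neither motif, and that of Gpr101 was 62.4% with 1 GC box. The cyclic AMP response element TGACGTCA, present in 1.55% of promoters, was in none of the 7 matched genes, nor was the TATA box TATAAA, present in 12.4%.

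In 7 of the 8 genes the FPKM of the dorsal libraries did not overlap with that of the ventral libraries, against 11.1% of all genes tested. Of the 7, 5 were higher in dorsal MEC, as in 6.18% of genes tested, and 2 in ventral MEC, as in 4.96%. Since 5 of the 8 were chosen on this contrast, the count is a description. The test was edgeR's quasi-likelihood test on the estimated fragments of all 13651 genes, and a call required a change of at least 20% and a p, adjusted over these genes by Benjamini-Hochberg, under 0.05. This called 890 genes or 6.52%, of which 476 were higher in dorsal MEC (D>V, 3.49% of genes tested) and 414 higher in ventral MEC (V>D, 3.03%). Scaling by total fragments alone turned this balance, with 404 D>V and 499 V>D. Without the minimum change, 7.16% of genes passed. Dorsal and ventral pools came from the same 4 groups of mice, so p-values measure the spread between these pools.

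Reln, the stellate cell marker, lies on chromosome 5 (GRCm38, 21884454 to 22344702, minus strand). Its FPKM was 33.4, 31.6, 28.0 and 33.7 in dorsal libraries 1 to 4, and 38.9, 38.7, 33.9 and 31.9 in ventral libraries 1 to 4. The regions overlapped, with ventral library 4 below 2 of the dorsal libraries. The fragments, on which edgeR was run, ordered the libraries differently. As counts scaled to library size (CPM), the dorsal values were 255.3, 256.7, 245.1 and 222.9. The ventral values were 313.2, 279.4, 289.1 and 245.5 CPM, and the regions overlapped here too. Dorsal library 4 was thus the highest of its region in FPKM and the lowest in CPM. Mean FPKM was 31.7 ± 2.62 in dorsal and 35.8 ± 3.52 in ventral MEC (SD, n = 4). The edgeR log2(V/D) of 0.20 ± 0.07 (SE) was not called (adjusted p = 0.117 by edgeR). The 95% interval of the difference, before adjustment over genes, ran from 1.04-fold to 1.27-fold. With the replicate number as a block, the edgeR adjusted p was 0.00904 at a log2(V/D) of 0.20, which is still below a 20% change. Single libraries moved this estimate in both directions. Without ventral library 4 the log2(V/D) was 0.26 (adjusted p = 0.0338 by edgeR), still just below a 20% change. Without ventral library 1 it was 0.15 (adjusted p = 0.367 by edgeR). On the 4 libraries with agreeing headers it was 0.06. Another gene, Gm10475, overlaps exons of Reln, an overlap found without regard to strand. Whether the counting used strand is not given in the sources used here. Fragments of Gm10475 therefore cannot be told apart from those of Reln.

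Calb1, which encodes calbindin, lies on chromosome 4 (15881264 to 15908064, plus strand). Its FPKM was 4.44, 4.80, 4.59 and 4.44 in the dorsal libraries and 10.7, 6.79, 6.08 and 7.76 in the ventral libraries. All ventral libraries were above all dorsal ones, and ventral library 1 stood highest. The means were 4.57 ± 0.169 and 7.85 ± 2.05 FPKM (SD, n = 4), and Calb1 was V>D at a log2 fold change of 0.90 ± 0.17 (SE), or 1.87-fold (adjusted p = 0.00639 by edgeR). The 95% interval ran from 1.48-fold to 2.35-fold. The close agreement of the dorsal FPKM was not seen in the fragments themselves. As counts scaled to library size (CPM), the dorsal values were 22.1, 18.1, 15.3 and 18.0, a coefficient of variation of 15.1% against 3.69% in FPKM. The ventral values were 46.9, 29.1, 27.7 and 32.7 CPM, again all above the dorsal ones. Leaving out each library in turn gave a log2 fold change between 0.70 and 0.996, the lowest without ventral library 1, and the edgeR adjusted p stayed at or below 0.0350.

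Wfs1, which encodes wolframin, lies on chromosome 5 (36966104 to 36989205, minus strand), at a distance from Reln. It had 65.9, 86.6, 72.96 and 80.8 FPKM in the dorsal libraries and 51.4, 53.8, 57.7 and 47.1 in the ventral libraries. The lowest dorsal library was above the highest ventral one. Mean FPKM was 76.6 ± 9.09 in dorsal and 52.5 ± 4.45 in ventral MEC (SD, n = 4), and Wfs1 was D>V at a log2(V/D) of -0.54 ± 0.08 (SE), that is 1.45-fold higher in dorsal MEC (adjusted p = 0.000291 by edgeR). Leaving out each library in turn gave a log2(V/D) between -0.60 and -0.47, with edgeR adjusted p of at most 0.00196. The markers of pyramidal cells thus differed in opposite directions, Calb1 being V>D and Wfs1 D>V. For these 3 markers too, earlier results of the same libraries were known when they were picked.

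The relation of the markers to each other can be read within a library, where scaling between libraries plays no part. The step from fragments to FPKM still differed between libraries for Reln and Calb1. CPM per FPKM ran from 6.62 to 8.77 for Reln, from 3.34 to 4.98 for Calb1 and from 4.21 to 4.33 for Wfs1. Calb1 was 0.132 to 0.164 of the FPKM of Reln in dorsal and 0.176 to 0.276 in ventral libraries. Wfs1 was 1.97 to 2.74 times Reln in dorsal and 1.32 to 1.70 times Reln in ventral libraries. Calb1 was 0.0550 to 0.0674 of Wfs1 in dorsal and 0.105 to 0.209 of Wfs1 in ventral libraries. None of the 3 ratios overlapped between regions. The mean log2 ratio changed from dorsal to ventral by 0.57 for Calb1/Reln, by -0.72 for Wfs1/Reln and by 1.29 for Calb1/Wfs1, the last a 2.44-fold difference. The separation of Calb1/Wfs1 follows from the separation of Calb1 and of Wfs1 in opposite directions. That of Wfs1/Reln follows from the ranges of Wfs1 and Reln in each region. No test is therefore given for these ratios. For Calb1/Reln, a two-sided exact permutation test of 4 against 4 libraries, without regard to pairs, gave p = 0.0286, its smallest possible value. Benjamini-Hochberg adjustment over the 3 ratios computed left this permutation p at 0.0286. The other ratios, whose separation follows from the single genes, also had the smallest possible value. The adjustment could therefore not raise the p of Calb1/Reln and adds nothing to it. Within the 4 pairs of libraries that share a replicate number, Calb1/Reln was higher and Wfs1/Reln lower in the ventral library in 4 of 4. The exact sign-flip test over these pairs gave p = 0.125 for Calb1/Reln. This is the smallest value that 4 pairs allow, so with pairs this design cannot reach 0.05. The ratios share genes and are not independent. Ratios of fragments in place of FPKM gave 0.67, -0.73 and 1.41, and the 4 libraries with agreeing headers gave 0.49, -0.66 and 1.15.

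**Figure D2:**
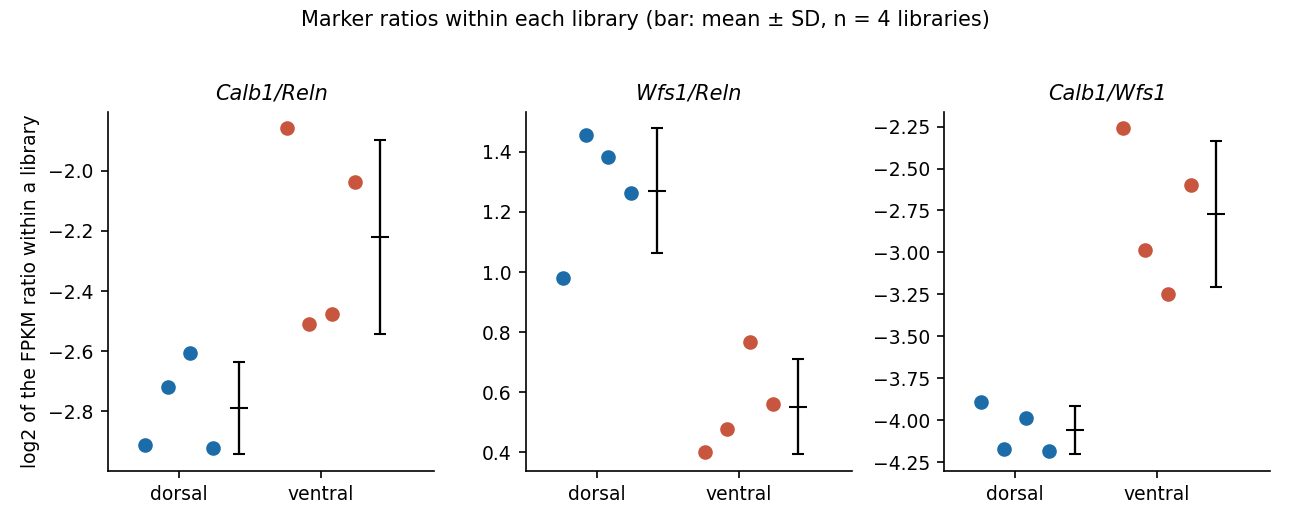
Log2 ratio of FPKM between 2 markers within each library (vertical axes) for dorsal (blue) and ventral (red) MEC, libraries 1 to 4 from left to right, with the mean ± SD over 4 libraries in black. The regions do not overlap in any of the 3 ratios, and ventral library 1 has the highest Calb1/Reln and Calb1/Wfs1.

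The 4 genes chosen as D>V are a mixed group by function. Cpne4 encodes a copine, a protein that binds membranes when calcium rises, and lies on chromosome 9 (104547286 to 105034544, plus strand). Its FPKM was 13.0, 14.9, 13.3 and 14.8 in the dorsal libraries and 9.53, 9.54, 8.65 and 10.05 in the ventral libraries. The values lay close together within each region, and the log2(V/D) was -0.55 ± 0.07 (SE). Rasd2, also called Rhes, encodes a small GTP-binding protein best known from the striatum, and lies on chromosome 8 (75213944 to 75224113, plus strand). It was the lowest of the 8 genes, with 3.16, 4.24, 3.90 and 4.73 FPKM in the dorsal and 2.09, 2.40, 3.03 and 2.53 in the ventral libraries. Its highest ventral library was just under its lowest dorsal library, and the log2(V/D) was -0.67 ± 0.14 on 89 to 219 fragments per library. Zdhhc23 encodes an enzyme of the DHHC family, which attaches palmitate to proteins, and lies on chromosome 16 (43965033 to 43979791, minus strand). Its FPKM was 8.87, 9.49, 9.04 and 8.94 in the dorsal libraries and 7.28, 6.63, 7.54 and 5.74 in the ventral libraries. The dorsal libraries differed little among themselves, and the log2(V/D) was -0.40 ± 0.11 on 90 to 216 fragments per library. Zfp385b encodes a zinc finger protein and lies on chromosome 2 (77410634 to 77819639, minus strand). It had 27.6, 27.0, 26.4 and 32.1 FPKM in the dorsal libraries and 19.7, 21.9, 20.7 and 23.2 in the ventral libraries. Its regions did not overlap either, and the log2(V/D) was -0.40 ± 0.08. In linear terms the dorsal level was 1.46 times the ventral level for Cpne4, 1.59 times for Rasd2, and 1.32 times for both Zdhhc23 and Zfp385b, beside 1.45 times for Wfs1.

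Gpr101 encodes an orphan receptor coupled to G proteins and lies on the X chromosome (57496668 to 57503757, minus strand). Its FPKM was 2.09, 1.13, 1.36 and 1.06 in the dorsal libraries and 10.7, 9.06, 8.58 and 7.45 in the ventral libraries. The dorsal libraries held 81 to 157 fragments of it and the ventral libraries 518 to 1057. The edgeR log2(V/D) was 2.69 ± 0.19 (SE), or 6.46-fold, the widest difference of the 8 genes. Within dorsal MEC it varied more than any other of the 8, with a coefficient of variation of 33.5%, with library 1 above the other three. Of the 8 genes, ventral library 1 held the highest value of Reln and Calb1 as well as of Gpr101.

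**Figure D3:**
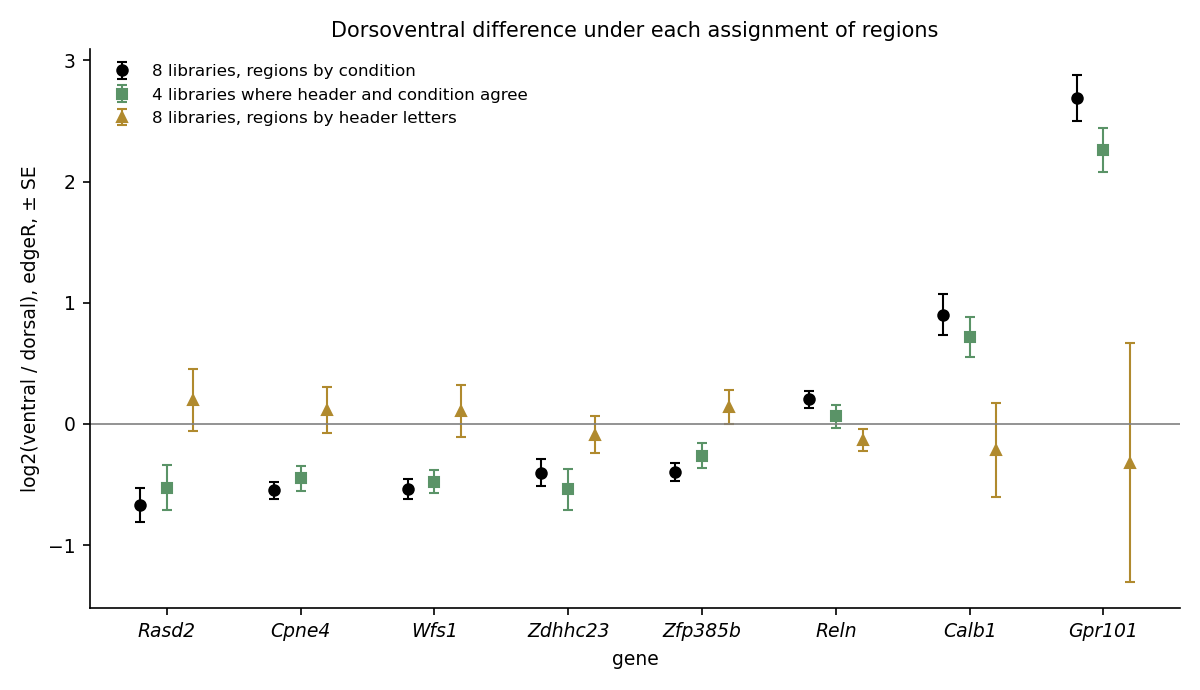
Log2(ventral/dorsal) from edgeR with its SE (vertical axis) for the 8 genes in order of the difference, with regions by condition over 8 libraries (black circles), over the 4 libraries where header and condition agree (green squares), and with regions by header letters over 8 libraries (gold triangles). The first and second sets lie on the same side of 0 for every gene, from -0.67 to 2.69 and from -0.54 to 2.26, whereas the third lies between -0.32 and 0.20.

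The direction of all 8 differences was the same when only the 4 libraries with agreeing headers were used. There the log2(V/D) was 0.72 for Calb1 (adjusted p = 0.0445 by edgeR), -0.48 for Wfs1 (adjusted p = 0.0208 by edgeR), 2.26 for Gpr101, -0.45 for Cpne4, -0.53 for Rasd2, -0.54 for Zdhhc23 and -0.26 for Zfp385b, each from 2 libraries against 2. With regions taken from the header letters the differences of the 8 genes lay between -0.32 and 0.20, with -0.21 ± 0.39 for Calb1, 0.10 ± 0.21 for Wfs1 and -0.32 ± 0.99 for Gpr101 (SE). In that arrangement 2 genes of 13651 were called D>V by edgeR and 0 V>D, with 718 at an unadjusted p under 0.05.

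By profile over the 8 libraries, the genes most like each marker were found by the root mean square difference of centred log2(FPKM + 1) values. For Wfs1 these were Dmp1 (0.0871), Xkrx (0.0906) and Arhgef10 (0.0921), where the median over all other genes was 0.326. Dmp1 encodes a matrix protein known from bone. For Calb1 they were Pde11a (0.135), Pde9a (0.146) and Synpr (0.149), with a median of 0.404. Pde11a and Pde9a encode phosphodiesterases of cyclic nucleotides, and Synpr a synaptic vesicle protein. For Reln they were Hrk (0.0357), AC119212.1 (0.0537) and AC154378.1 (0.0555), with a median of 0.201, and Hrk encodes a regulator of apoptosis. Among the 8 genes themselves, Wfs1 and Rasd2 were closest (0.108), then Cpne4 and Zfp385b (0.109). Calb1 lay 0.641 from Wfs1 and 0.306 from Reln. Adding 1 narrows differences at low FPKM, so these distances depend on level. The log2(V/D) of Rasd2 was -0.67 by edgeR and -0.51 on log2(FPKM + 1), that of Wfs1 -0.54 and -0.53. Dmp1, Pde11a and AC154378.1 had mean levels of 1.38, 1.36 and 1.22 FPKM. The profiles also include the difference between regions by which Rasd2, Cpne4 and Zfp385b were chosen.

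The other layer II genes moved in both directions. A list of genes with signal limited to layer II by in situ hybridization held 73 names, among them 6 of the 8 genes. Reln and Calb1 are not in it, although the study's text counts both with the genes of layer II. Of all 63 genes of the list that were tested, the 6 included, 12 were D>V and 7 V>D. Of its 57 other tested genes 7 were D>V and 6 V>D, 22.8% against 6.52% of all genes, and the median log2(V/D) was -0.03 against 0.0031 over all genes. The 7 D>V genes were Dusp4, Epha3, Gpc5, Nefl, Megf11, Gucy1a2 and Prkca, with log2(V/D) from -0.53 to -0.33. Nefl, the light chain of neurofilaments, had 79.0 ± 9.45 FPKM in dorsal and 58.5 ± 5.22 in ventral MEC (SD, n = 4, adjusted p = 0.00266 by edgeR). Epha3, a receptor for ephrins, had 5.06 ± 0.216 and 3.97 ± 0.117 FPKM (adjusted p = 0.00593 by edgeR). The 6 V>D genes were Ntf3, Capsl, Tmc6, Cpa6, Lhx2 and 3110047P20Rik. Ntf3, which encodes neurotrophin 3, had 0.603 ± 0.176 FPKM in dorsal and 2.25 ± 0.145 in ventral MEC, a log2(V/D) of 1.95 (adjusted p = 1.95e-05 by edgeR). Capsl, a gene of the EF-hand type, had 2.01 ± 0.294 and 5.08 ± 0.243 FPKM, a log2(V/D) of 1.35 (adjusted p = 3.81e-05 by edgeR). Scamp1 and Nefl had the highest levels of these other genes, and Scamp1, at 108 FPKM in dorsal and 107 in ventral MEC, was not called.

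Genes that mark islands and the parasubiculum (13 listed, 12 tested) include Wfs1. Of the other 11 tested none was D>V and 2 were V>D: Igsf21 at a log2(V/D) of 0.42 and Smpd4 at 0.28. Without dorsal library 2 neither was called by edgeR. The peptide gene Cck, the highest of that list at 454 FPKM in dorsal and 460 in ventral MEC, was not called, nor was the glutamate receptor gene Gria3. Of 4 layer II genes listed with a pattern like that of Reln, Dcc, Lef1 and Il1rapl2 were not called, with log2(V/D) from 0.05 to 0.10, and Cdh13 was V>D. Cdh13, a cadherin, had 21.6 ± 3.31 FPKM in dorsal and 36.7 ± 8.09 in ventral MEC, a log2(V/D) of 0.86 (adjusted p = 1.57e-06 by edgeR).

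Genes that work with the markers form short lists, in which few calls would be found at the share of 6.52% over all genes. In the reelin pathway 0 of 10 tested genes were called by edgeR. Its receptors Vldlr and Lrp8 had log2(V/D) of 0.15 and -0.11 and the adaptor Dab1 0.11, and Pafah1b1 and Crk, the highest of the list, had -0.16 and -0.08. In the response to unfolded proteins, to which wolframin is linked, 0 of 10 were called by edgeR, with Hsp90b1 at 0.03 and Hspa5 at 0.04. Among calcium buffers with EF hands, 1 of 5 tested genes was D>V and 1 V>D. Pvalb, which encodes parvalbumin, fell from 15.7 ± 2.15 FPKM in dorsal to 6.63 ± 0.961 in ventral MEC (log2(V/D) -1.25, adjusted p = 4.67e-06 by edgeR). Calb2, which encodes calretinin, rose from 0.785 ± 0.175 to 3.16 ± 0.308 FPKM (log2(V/D) 2.02, adjusted p = 2.55e-06 by edgeR). Necab1 and Necab3 had the highest levels and were not called, at a log2(V/D) of -0.24 and 0.03.

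The families of the D>V genes were not uniform either. Of 8 other copines tested, Cpne9 was D>V at a log2(V/D) of -1.68, Cpne7 and Cpne5 were V>D at 0.76 and 0.48, and the other 5, including the abundant Cpne6 at 79.7 FPKM, were not called. Of the partners of Rasd2, Ppp1r1b, which encodes the phosphatase inhibitor DARPP-32 of dopamine signalling, was D>V at -0.71, and the adenylyl cyclase gene Adcy5 was V>D at 0.44. The G protein genes Gnai1 and Gnb1 were not called, and Rasd1 was too low to test. Of 19 other DHHC genes tested 0 were called by edgeR, with log2(V/D) from -0.24 to 0.32. Zdhhc17 and Zdhhc9 had the highest levels of these, with log2(V/D) of -0.08 and -0.04. Zfp385a, the 1 tested relative of Zfp385b, had a log2(V/D) of -0.07. Counted over all of these families and pathways together with the genes like Reln, 3 of 61 tested genes were D>V (4.92%, against 3.49% of all genes) and 5 V>D (8.20%, against 3.03%). At an unadjusted p under 0.05 edgeR passed 2 genes of the reelin pathway, 0 of the unfolded protein response and 1 of the DHHC genes, and DESeq2 and limma called 0 in each of these 3 lists.

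**Figure D4:**
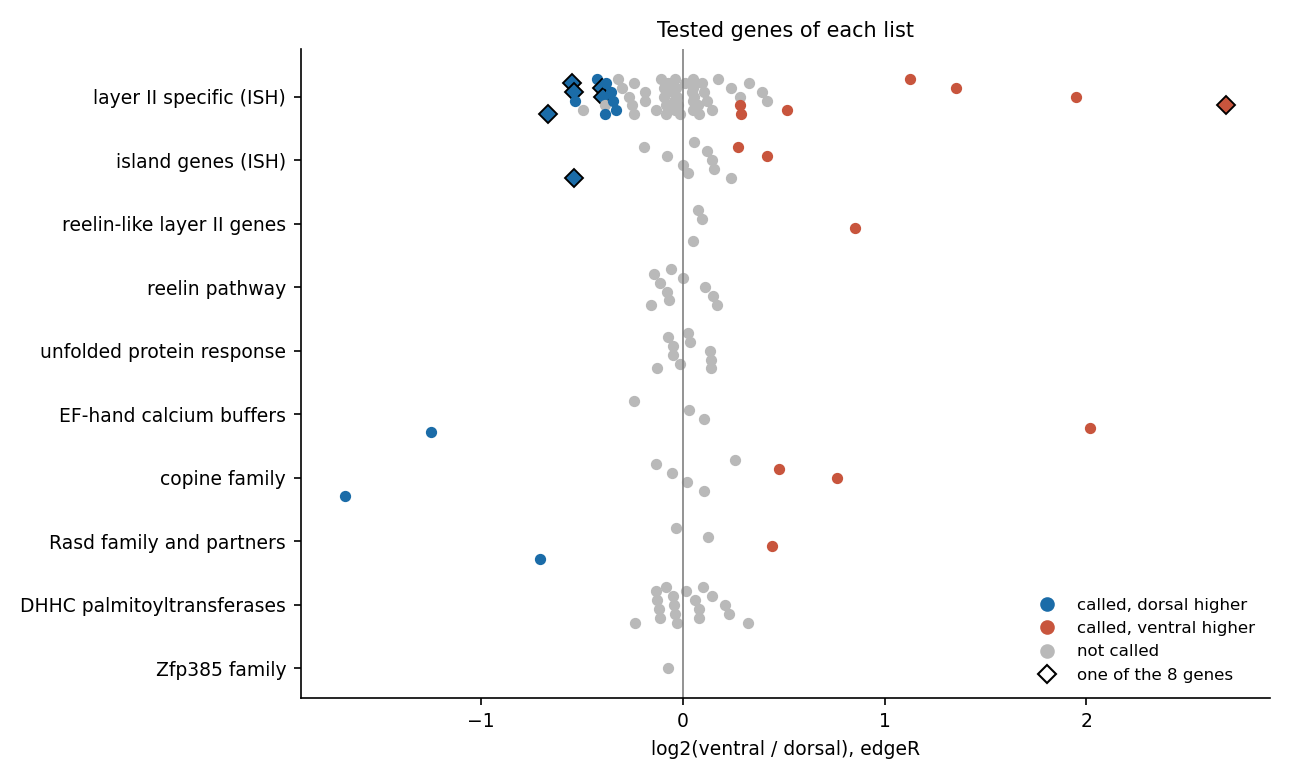
Log2(ventral/dorsal) from edgeR (horizontal axis) of the tested genes of each list (rows; the vertical spread within a row only separates points). Blue and red mark genes called D>V and V>D, grey those not called, and diamonds the genes among the 8. Gpr101 at 2.69 is the rightmost point and Cpne9 at -1.68 the leftmost.

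Some, but not all, of the genes that mark other cells that could carry the markers differed between regions as well. Reelin and calbindin also occur in interneurons. The summed FPKM of 4 genes of all GABAergic neurons was 193 to 197 in dorsal and 200 to 207 in ventral libraries, and 0 of the 4 were called by edgeR, DESeq2 or limma, with 3 at an unadjusted p under 0.05. Of 8 genes of interneuron types, Pvalb, Lamp5 and Npy were D>V and Sst and Calb2 V>D, and Sst alone went from 109 ± 29.4 to 220 ± 41.1 FPKM (SD, n = 4). The sum of the 8 was 162 to 236 in dorsal and 226 to 319 in ventral libraries. Markers of Cajal-Retzius cells, which also make reelin, were all 4 under a mean of 1 FPKM, with Lhx5 listed at 0 and the sum at 0.274 to 0.467 in dorsal and 0.577 to 0.801 in ventral libraries. Of the 3 markers of hippocampal CA1, where Calb1 and Wfs1 are also expressed, Fibcd1 and Mpped1 were V>D. The other, Spink8, was not called, with a mean of 1.35 FPKM in dorsal and 0.874 in ventral MEC. The sum of the 3 was 37.5 to 41.0 in dorsal and 48.1 to 56.0 in ventral libraries. Most of it was Mpped1, with means of 37.2 and 48.5 FPKM. Of 4 markers of the dentate gyrus, another site of Calb1, Prox1 was D>V and the others had a mean under 1 FPKM, with the sum at 4.70 to 5.37 and 3.35 to 4.75. The part of these cells in the differences of Reln, Calb1 and Wfs1 was not tested.

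Beside the D>V genes, all 6 markers of oligodendrocytes were D>V, with a summed FPKM of 808 to 1074 in dorsal and 447 to 586 in ventral libraries. Of 6 genes of glutamatergic neurons, Slc17a6 was D>V at a log2(V/D) of -0.57 and 5 were not called, with the sum at 587 to 742 and 601 to 765. Beside the V>D genes, 3 of 5 genes of the leptomeninges, Dcn, Slc6a13 and Igf2, were V>D, with the sum at 64.3 to 69.8 and 104 to 119, and Gfap was V>D among 5 genes of astrocytes (154 to 164 and 171 to 185). EdgeR, DESeq2 and limma called 0 of 4 genes of microglia (34.5 to 36.5 and 38.6 to 42.3), 0 of 3 of endothelial cells (9.79 to 13.3 and 7.22 to 10.2) and 0 of the 1 tested among 3 of the choroid plexus (0.862 to 1.40 and 1.07 to 1.35), with 2, 1 and 0 at an unadjusted p under 0.05 in edgeR. With the replicate block edgeR called 1 of the 3 endothelial genes. The part of these cells in the differences of the 8 genes was not tested.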

How the data were processed

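RNA-seq of 4 dorsal and 4 ventral MEC pools was analysed. The authors called bases with CASAVA 1.8, aligned paired-end fragments with TopHat2 2.0.8 to GRCm38 with Ensembl annotation, and ran Cuffdiff 2. The deposited table by the authors gives, for each library, an estimated count of fragments per gene, not normalized, and an FPKM, which Cuffdiff scales between libraries and sums over isoforms. Of the per-library values, 2 columns of scaled fragments were not used. The deposited columns of the authors' own comparison (fold changes, p-values) were not used. No library was matched to a single labelled sample.

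The estimated counts were rounded (9.36% were not whole) and tested with edgeR 4.0.16 in R 4.3.3 (TMM, quasi-likelihood, robust). Genes needed a mean FPKM of at least 1, at least 10 fragments summed over the libraries and no status of failed or too deep for the estimate (28 genes had one). The edgeR step was tested on simulated data. Alternatives used DESeq2 1.42.0, limma 3.58.1 on log2(FPKM + 1) or log2(FPKM + 0.1), other scalings and filters, a replicate block and each library left out. Ratios were tested with SciPy 1.17.1, and plots were drawn with matplotlib 3.10.9. SD values are over libraries. Intervals cover the spread between libraries, and were formed from the edgeR SE with a normal distribution and without regard to pairs. With 4 libraries per region this can make them too narrow.

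Dorsal and ventral libraries that share a replicate number in the authors' table deviated together from their regional means, with correlations across genes from 0.104 to 0.244 in 4 pairs, and 4 of 4 dorsal libraries, but 3 of 4 ventral libraries, matched best with their own number. Libraries with different numbers had correlations from -0.387 to 0.118. The numbers were therefore taken as pairs, though GEO's labels give none.

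Genes named are the 8, the called genes and the 2 highest of each list, the 3 nearest in profile to each of Reln, Calb1 and Wfs1, and called cell type markers. Vldlr, Lrp8, Dab1, Lef1, Il1rapl2, Rasd1, Lhx5 and Spink8 fall outside this rule and were named after their values were seen. The 8 genes and all lists were chosen with earlier results of these data known. The layer II and island lists come from the study's in situ hybridization analysis. Gene positions are those of the GENCODE annotation of GRCm38. Of the 73 layer II genes 69 were matched, and of 3 genes of the Zfp385 family 2.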

Additional observations from a re-analysis of the deposited data

How the results depend on the processing

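Leaving out each library in turn kept the direction of all 8 genes, with log2(V/D) of 0.15 to 0.26 for Reln, 0.70 to 0.996 for Calb1, -0.60 to -0.47 for Wfs1, -0.58 to -0.52 for Cpne4, -0.78 to -0.58 for Rasd2, -0.46 to -0.34 for Zdhhc23, -0.44 to -0.33 for Zfp385b and 2.59 to 2.93 for Gpr101. It gave 377 to 618 D>V and 295 to 450 V>D genes over all genes, 4 to 6 V>D genes of layer II and 0 to 3 of the island list, where all 8 libraries gave 7 and 2. Counts of layer II genes here include the 6 of the 8 genes in that list. With the replicate block, edgeR called 662 D>V and 555 V>D genes, and the block changed no call of Reln, Calb1 or Wfs1. Within pairs the mean changes of the ratios were 0.57 (Calb1/Reln), -0.72 (Wfs1/Reln) and 1.29 (Calb1/Wfs1), as without pairs. Sign flips within pairs gave Calb1/Reln an exact p of 0.125, the smallest possible. For Wfs1/Reln and Calb1/Wfs1 the direction within pairs follows from the single genes, so sign flips cannot test them. On log2(FPKM + 1) limma called 305 D>V and 206 V>D genes, 4 V>D layer II genes and 0 V>D island genes, with Gpr101 at 2.06. On log2(FPKM + 0.1) it called 294 and 204, again with 4 and 0. A minimum mean of 5 FPKM left 266 V>D genes, 3 of them in layer II.

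The sign flips and the following alternatives were chosen after seeing the data. The 4 libraries with agreeing headers gave 166 D>V and 100 V>D genes, 3 and 3 in layer II (12 and 7 with 8 libraries), 0 V>D island genes and 3 V>D family and pathway genes, with Cpne4 at -0.45, Zdhhc23 at -0.54, Zfp385b at -0.26 and Gpr101 at 2.26. The regions of the header letters gave 2 D>V and 0 V>D genes and 0 in every list. There Reln had -0.13, Calb1 -0.21, Wfs1 0.10, Cpne4 0.11, Rasd2 0.20, Zdhhc23 -0.089, Zfp385b 0.14 and Gpr101 -0.32, and the ratios changed by -0.084 (Calb1/Reln), 0.056 (Wfs1/Reln) and -0.14 (Calb1/Wfs1). Each header region mixes libraries of both conditions in equal number, so a difference between the conditions averages out in that arrangement. The cause of the other changes, and of the conflict between the sources, was not tested. Of the 8 genes, fragments were fewest for Rasd2, Zdhhc23 and dorsal Gpr101, down to 81 in a library, which limits their precision.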
